A study of Rattus norvegicus with 32 samples.

Results

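Thymic epithelial cells of 4-month-old rats, cultured and never transplanted, were compared between a bulk culture, PRP4mo_bulk, and a culture grown from 1 clone, PRP4mo_Cl09. The labels choose these cultures, and each was measured on 2 arrays, so the comparison rests on 4 of the 32 arrays of the series. All cells came from Sprague-Dawley rats that carry the act-EGFP transgene and make enhanced green fluorescent protein constitutively. They were grown on irradiated 3T3-J2 cells, a mouse fibroblast line used as feeder layer, in a mixture of DMEM and F12 media. Beside the 4-month pair, 6 other cultures served for orientation. PRE16cl11_VII and PRP1cl11_VII are the other ungrafted thymic cultures, both clonal, from embryonic day 16 and from the stage labelled P1. Clone_907 and Clone_354 are bulk cultures of 4-month thymic cells recovered after a first and a second transplantation into skin, for which the hosts were nude mice. YR219P5_Bulk_V and YR219P5cl7 are a bulk and a clonal culture of ungrafted hair follicle cells labelled P5. Each kind of culture is present once, and the labels do not say whether the bulk culture and the clone came from the same animal, or whether the 2 arrays of a culture are separate cultures. P-values of the fit over arrays therefore measure only the spread between arrays, which may be technical, and the comparison is between these 2 RNA sources, not between bulk and clonal culture in general.

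The thymic epithelium forms the stroma in which T cells mature. It is built by a programme in which the transcription factor Foxn1 is central and which also uses Pax9, Pax1 and Isl1, and its cells carry keratins of simple epithelia (Krt8, Krt18) as well as of basal stratified epithelia (Krt5, Krt14). A bulk culture holds the descendants of many founder cells, whereas a clone holds those of a single cell. Mme encodes neprilysin (CD10), a membrane peptidase that cleaves small signalling peptides, and Hoxa7 is a homeobox gene of the kind that marks position along the body axis.

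Values are probe set signals on the log2 scale, made by the authors with RMA, so that a difference of 1 is a 2-fold difference of signal. Of 15310 probe sets that carry 1 gene symbol, 1323 (8.64%) differed between the bulk culture and the clone at an adjusted p under 0.05 in limma. Of these, 788 (5.15%) were higher in the bulk culture and 535 (3.49%) lower. The difference was at least 2-fold for 124 probe sets (0.81%; 123 genes) higher in the bulk culture and for 50 (0.327%) lower. On all 174 (1.14%), the arrays of the bulk culture and of the clone did not overlap, which held for 7816 (51.1%) of all probe sets tested. The median difference over all probe sets was -0.01 on the log2 scale. The count without the 2-fold limit depended on the arrays: it was 655 without array 2 of the bulk culture, 766 and 698 without array 1 or 2 of the clone, and 1018 without array 1 of the bulk culture. The 2-fold count ran from 155 to 210 over the same omissions.

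PRP4mo_bulk and PRP4mo_Cl09 lay close to each other. The root mean square log2 distance between their means was 0.298, the lowest of the 6 distances among the ungrafted thymic cultures (up to 0.482) and the 4th lowest of 120 culture pairs. It was 0.464 between the follicle bulk culture and clone. Distances between an array of the bulk culture and an array of the clone ran from 0.304 to 0.384, above the distance between the arrays of the bulk culture (0.241) and of the clone (0.196). Over all 16 cultures, the distance between the arrays of a culture ran from 0.162 to 0.39. The widest of these was above every distance between an array of the bulk culture and an array of the clone.

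**Figure D1:**
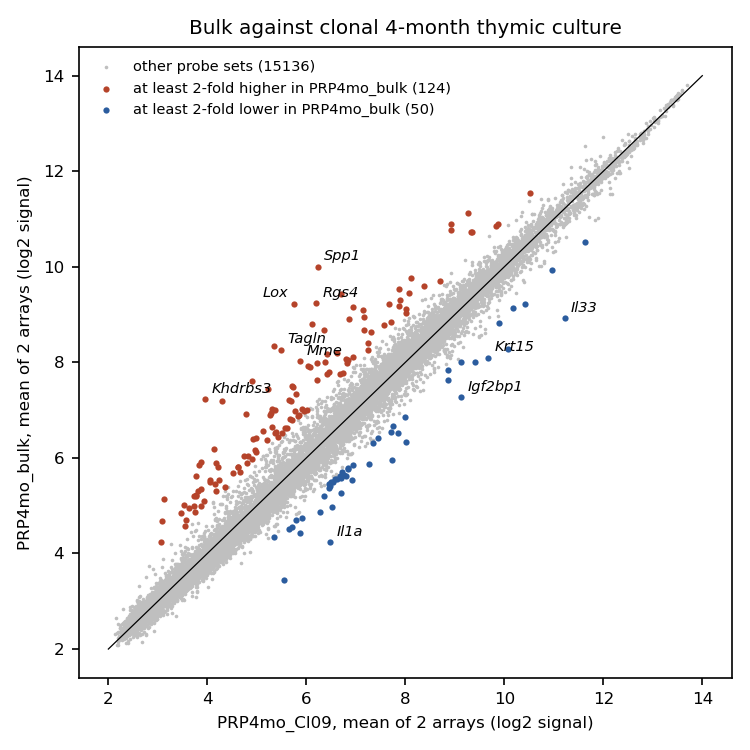
Mean log2 signal of the 2 arrays of PRP4mo_bulk (vertical axis) against that of PRP4mo_Cl09 (horizontal axis), 1 point per probe set, with the line of equal signal. The 124 probe sets at least 2-fold higher in the bulk culture lie above the line, led by Spp1, and the 50 at least 2-fold lower lie below it, led by Il33.

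Both given genes separated the 4-month cultures, in opposite directions. Mme measured 7.78 and 8.27 on the arrays of the bulk culture and 5.98 and 5.78 on those of the clone. The bulk arrays were both above the clone arrays, by 2.15 ± 0.17 (limma SE, n = 2 arrays each; adjusted p = 2.39e-08), a 4.43-fold difference. The clone was the low culture among ungrafted thymic cells, since PRE16cl11_VII had a mean of 8.06 and PRP1cl11_VII of 8.31. In grafted thymic cultures Mme had means from 3.32 to 6.99, and in follicle cultures from 3.48 to 3.59. Hoxa7 measured 5.38 and 5.45 in the bulk culture and 6.11 and 6.02 in the clone. It was lower in the bulk culture by 0.65 ± 0.10 (written as bulk minus clone, -0.65; adjusted p = 0.000252, limma). Here too the clone stood apart from the other ungrafted thymic cultures, whose means were 5.42 in the bulk culture, 5.43 in PRE16cl11_VII and 5.47 in PRP1cl11_VII, and grafted thymic cultures ranged from 5.77 to 7.07. Hoxa7 was the only one of 22 Hox probe sets past the threshold; the median of these 22 differences was -0.17.

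Other membrane peptidases did not share one direction. Of 15 probe sets, Mme and Anpep (aminopeptidase N; 0.74) were higher in the bulk culture, and Ace (angiotensin-converting enzyme; -1.04) and Ece1 (endothelin-converting enzyme; -0.66) were lower; the median was -0.12. Ace lost the call without array 2 of the bulk culture (adjusted p = 0.0582).

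**Figure D2:**
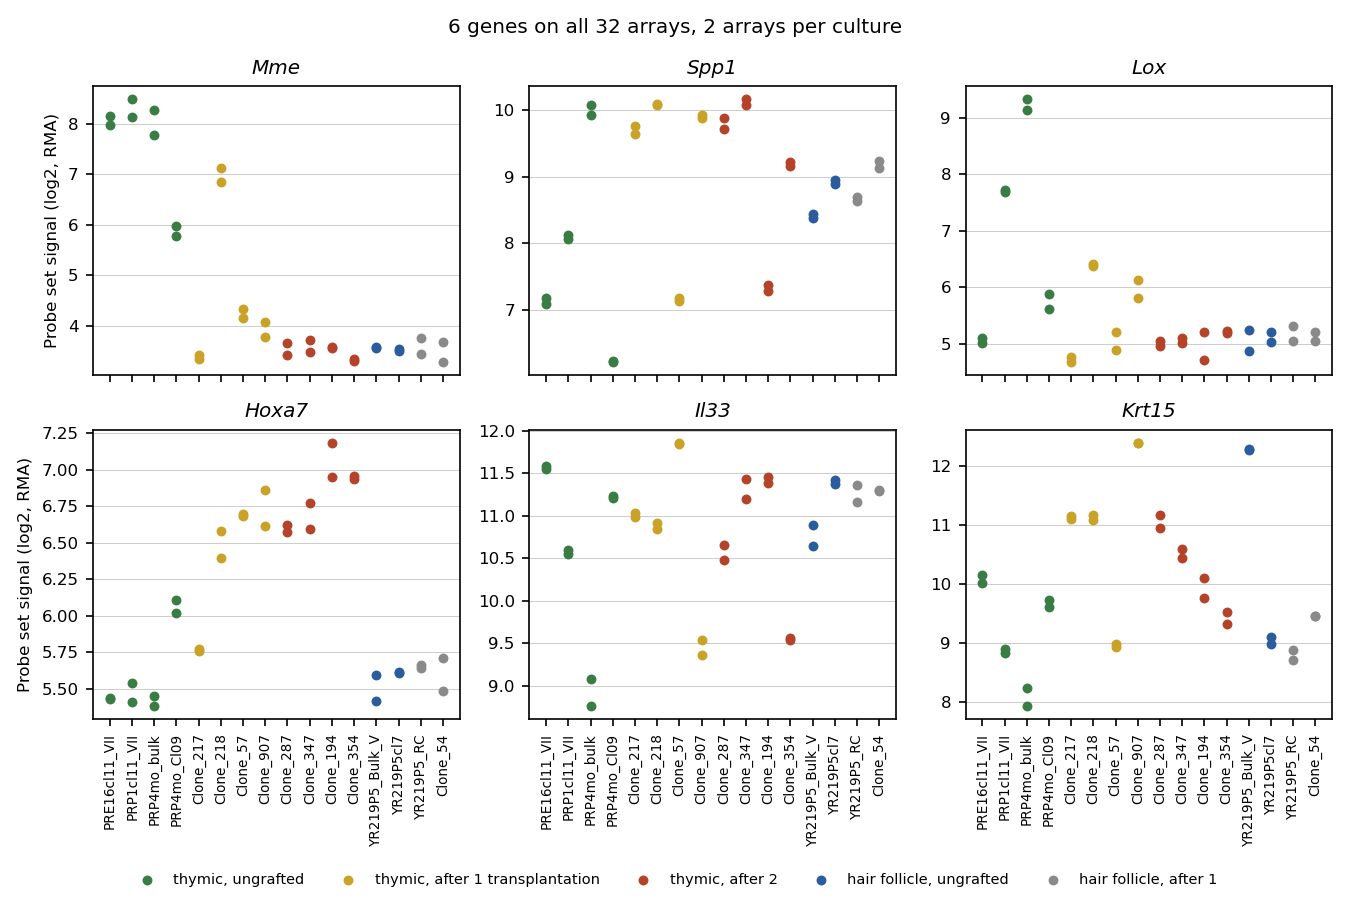
Log2 signal of 6 genes on all 32 arrays; the horizontal axis lists the 16 cultures, each point is an array, and colours give tissue and number of transplantations. For Mme and Hoxa7, PRP4mo_Cl09 lies apart from the other 3 ungrafted thymic cultures, while for Lox and Il33 PRP4mo_bulk is the extreme culture, at means of 9.23 and 8.92.

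The largest differences in favour of the bulk culture were those of Spp1 and Lox, which belong to the extracellular matrix list. Spp1, which encodes the secreted phosphoprotein osteopontin, measured 10.08 and 9.93 in the bulk culture and 6.24 and 6.22 in the clone. This was the largest difference of all probe sets, 3.78 ± 0.08 (13.7-fold; adjusted p = 9.83e-18). The clone had the lowest mean of the 16 cultures and the bulk culture was exceeded by 2 grafted thymic cultures, Clone_347 at 10.13 and Clone_218 at 10.09. Lox, the lysyl oxidase that cross-links collagen and elastin, measured 9.13 and 9.33 against 5.89 and 5.62, a difference of 3.48 ± 0.16 (11.1-fold; adjusted p = 6.95e-12). The bulk mean of Lox, 9.23, was the highest of the 16 cultures; PRP1cl11_VII followed at 7.70 and all others were at 6.40 or lower.

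Over all probe sets tested, 5.15% were higher in the bulk culture and 3.49% lower, which is the background for this and the later list counts. Of 23 extracellular matrix probe sets, 10 were higher in the bulk culture and 0 lower, with a median of 0.33. Beside Spp1 and Lox these were Loxl2 (a lysyl oxidase-like enzyme; 1.88 ± 0.19), Col12a1 (a fibril-associated collagen; 1.77 ± 0.15), Has2 (hyaluronan synthase; 1.02), Col4a1 (0.74), Loxl1 (0.70), Col5a2 (0.59), Sparc (0.52) and Fn1 (fibronectin; 0.39). The genes of the main fibrillar collagen, Col1a1 and Col1a2, did not pass, at differences of 0.24 and 0.06. Vcan, the proteoglycan versican, was not in the list and measured 8.59 and 8.78 against 6.47 and 6.23, a difference of 2.33 ± 0.19. Of 18 probe sets of extracellular proteases and their inhibitors, 6 were higher and 0 lower. Serpine2, an inhibitor of thrombin and plasminogen activators, measured 9.38 and 9.47 against 6.70 and 6.70 (2.73 ± 0.12). Timp1, an inhibitor of matrix metalloproteinases, was higher by 1.65 ± 0.11, and the plasminogen activators Plat and Plau by 0.65 and 0.50, while Mmp10 (at least 1.66-fold, as its clone mean was under 4) and Mmp14 (0.41) completed the 6. The count of 6 became 3 without array 2 of the bulk culture.

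The actin-binding gene Tagln (transgelin) measured 8.16 and 8.37 in the bulk culture and 5.60 and 5.38 in the clone (2.77 ± 0.16; adjusted p = 2e-10). Of 14 probe sets of genes linked to mesenchymal transition, 5 were higher and 0 lower. These were the intermediate filament gene Vim (1.40 ± 0.13), the N-cadherin gene Cdh2 (1.30 ± 0.17), the transcription factor genes Twist1 (1.17 ± 0.26) and Zeb1 (0.84 ± 0.16), and Tgfbi (0.87 ± 0.14). Vim measured 10.72 and 10.75 against 9.58 and 9.09, so it was far above the low end of the array in both cultures. Snai1, Snai2, Zeb2 and Twist2, further transcription factors of this group, did not pass. Twist1 lost the call without array 1 of the bulk culture (adjusted p = 0.0526) and without array 2 of the clone (0.0656).

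Markers of fibroblasts and feeder cells were counted beside these groups. Of 20 probe sets, 2 were higher in the bulk culture (Tagln and Twist1), 1 was lower (Fbln1, -0.38), and the median was 0.05. The sum of their signals on the linear scale was 2697 and 2809 on the bulk arrays and 2357 and 2214 on the clone arrays. Lum measured 2.57 to 2.80 and Postn 2.96 to 3.28 on the 4 arrays, below the level of 4 under which a signal was not taken as shown above background, and Dcn measured 4.13 to 4.55. Col3a1 was 0.83 higher in the bulk culture at an adjusted p of 0.0507. Mouse feeder RNA was not measured apart from rat RNA, and its part in the matrix results was not tested. In a culture, fewer cells of a type and less RNA per cell cannot be told apart.

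**Figure D3:**
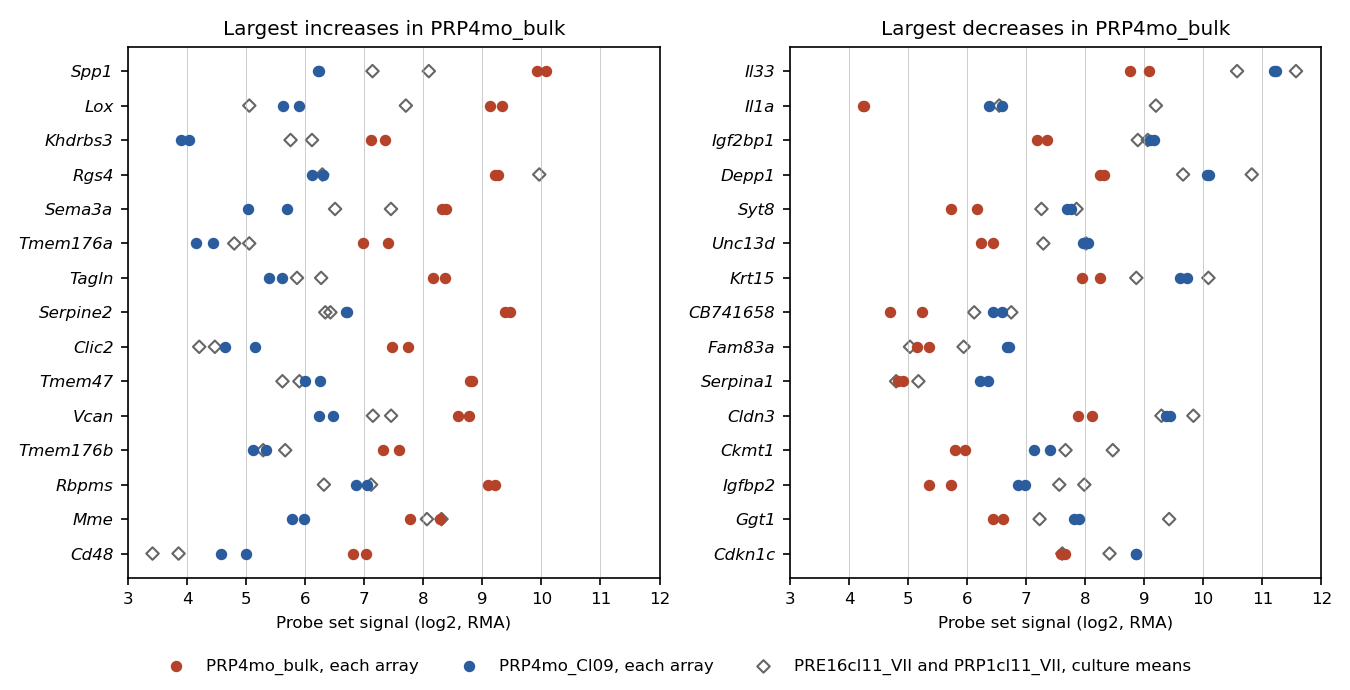
Log2 signal of the 15 largest increases (left) and the 15 largest decreases (right) in PRP4mo_bulk, with the 2 arrays of each 4-month culture as filled points and the means of the other ungrafted thymic clones as open diamonds. The filled points of the 2 cultures do not overlap for any of the 30 genes. Among the increases (left), a diamond lies at or above the bulk points for Rgs4 and Mme.

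Khdrbs3, which encodes an RNA-binding splicing regulator, measured 7.11 and 7.35 against 4.02 and 3.89. As the clone mean of 3.96 was under 4, this is a difference of at least 9.67-fold. Rgs4, a regulator of G protein signalling, was higher by 3.04 ± 0.19, and Sema3a, a secreted guidance cue, by 2.99 ± 0.18. The bulk culture was not unusual in Rgs4, since PRP1cl11_VII had a higher mean (9.96 against 9.24). Rbpms, an RNA-binding protein gene, was higher by 2.21 ± 0.18, and Clic2, Tmem47 and Cd48 by 2.71, 2.69 and 2.13. Igfbp3, which binds insulin-like growth factors, was higher by 2.05 ± 0.13.

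Tmem176a and Tmem176b, neighbouring genes for membrane proteins, rose together. Tmem176a measured 6.98 and 7.41 in the bulk culture and 4.43 and 4.15 in the clone (2.91 ± 0.22; adjusted p = 1.4e-08), and Tmem176b measured 7.31 and 7.58 against 5.33 and 5.11 (2.23 ± 0.17; adjusted p = 1.71e-08). The means of both other ungrafted thymic clones were far lower than the bulk culture, at 4.80 and 5.05 for Tmem176a and at 5.29 and 5.66 for Tmem176b. Their start sites are 556 bases apart on opposite strands in the RefSeq rat assembly GRCr8, so that the windows before both starts, shown here because the pair shares this stretch, lie side by side between the genes. Tmem176b lies on the minus strand, with the window chr4:79105264-79105513, and Tmem176a on the plus strand, with chr4:79105569-79105818. Each window is the 250 bases before the start, 5′ to 3′ on the gene's own strand. Capitals mark TGCNCNC or TATAAA on either strand. TGCNCNC is a looser pattern than the core of the metal response element, TGCRCNC, where R is A or G.
Tmem176b: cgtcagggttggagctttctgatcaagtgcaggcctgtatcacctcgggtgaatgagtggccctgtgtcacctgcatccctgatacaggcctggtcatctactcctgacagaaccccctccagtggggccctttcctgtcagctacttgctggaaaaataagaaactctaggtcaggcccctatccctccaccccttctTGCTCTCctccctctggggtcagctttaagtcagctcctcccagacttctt
Tmem176a: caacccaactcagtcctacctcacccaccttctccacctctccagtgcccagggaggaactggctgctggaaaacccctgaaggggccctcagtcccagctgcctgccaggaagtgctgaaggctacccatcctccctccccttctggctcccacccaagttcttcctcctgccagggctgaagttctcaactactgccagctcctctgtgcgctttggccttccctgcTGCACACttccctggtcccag
Each window held 1 match to TGCNCNC and 0 TATAAA. The match of Tmem176b, TGCTCTC, lacks the A or G of the core. Of 33469 rat promoter windows of this length, 43.4% hold at least 1 match to TGCNCNC and 12.9% hold TATAAA. Among the 174 probe sets, 3 further pairs of genes were direct neighbours in the annotation. Prkaa2 and Plpp3 were both higher in the bulk culture (at least 2.03-fold, with a clone mean under 4, and 2.71-fold), whereas in the other pairs Il18 was higher and Bco2 lower, and Igfbp5 higher (1.03) and Igfbp2 lower.

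The metallothioneins, small proteins that bind zinc and copper, were looked at after their values were seen. Of 6 probe sets, the 4 of Mt1 and Mt2A were higher in the bulk culture, and those of Mt3 and Mt4 did not pass. One Mt1 probe set measured 10.87 and 10.91 against 9.05 and 8.80 (1.96 ± 0.11) and the other 11.10 and 11.16 against 9.44 and 9.10 (1.86 ± 0.12). The Mt2A probe sets differed by 0.89 ± 0.12 and 0.72 ± 0.11. Probe sets of such small, near-identical genes can share signal with each other and with processed copies, so they are not independent. The windows before both start sites are shown because they carry many matches to TGCNCNC. Both genes lie on the minus strand of chromosome 19, with the windows chr19:10832976-10833225 for Mt1 and chr19:10838709-10838958 for Mt2A, and capitals are as above.
Mt1: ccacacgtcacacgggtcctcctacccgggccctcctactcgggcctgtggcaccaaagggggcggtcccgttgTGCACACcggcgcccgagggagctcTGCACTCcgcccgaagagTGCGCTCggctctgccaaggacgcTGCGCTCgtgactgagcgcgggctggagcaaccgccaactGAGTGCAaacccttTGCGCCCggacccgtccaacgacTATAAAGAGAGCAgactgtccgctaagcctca
Mt2A: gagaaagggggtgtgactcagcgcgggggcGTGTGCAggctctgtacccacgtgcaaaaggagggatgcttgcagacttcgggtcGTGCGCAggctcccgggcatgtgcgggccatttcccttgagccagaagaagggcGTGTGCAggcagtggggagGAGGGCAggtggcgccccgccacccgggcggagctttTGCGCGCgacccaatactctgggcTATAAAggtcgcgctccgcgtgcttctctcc
The Mt1 window held 7 matches to TGCNCNC, 5 on the strand shown and 2 on the other, and the Mt2A window held 5, 1 and 4. GAGAGCA in Mt1 and GAGGGCA in Mt2A read TGCTCTC and TGCCCTC on the other strand, which are not matches to the core TGCRCNC. At least 5 matches were found in 0.37% of all windows, and each of the 2 windows held 1 TATAAA. A match is a description of the letters and not a measured binding site.

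In the BMP and TGF-beta pathway, secreted ligands of which signal through paired receptors and Smad proteins, 10 of 31 probe sets were higher in the bulk culture and 1 was lower, with a median of 0.12. Among ligands, Bmp4 measured 5.48 and 6.16 against 4.58 and 4.65 (1.20 ± 0.20; adjusted p = 0.000305, but 0.0553 in a fit of the 4 arrays alone), Tgfb3 was higher by 1.10 ± 0.18 and Tgfb2 by 0.78, while Bmp3 was lower (-0.74). Secreted antagonists or binding proteins that were higher were Fstl1 (1.41 ± 0.09), Chrdl1 (0.62) and Fst (0.33). The Id genes, early targets of BMP signalling that encode inhibitors of helix-loop-helix factors, were in the list with 3 members, which were higher: Id2 by 1.55 ± 0.10, Id1 by 0.94 ± 0.11 and Id3 by 0.40 ± 0.10. Id4, not in the list and named after its values were seen, measured 7.06 and 6.96 against 6.07 and 5.95 (adjusted p = 0.000164). The inhibitory Smad gene Smad6 was higher by 0.74. Of the 8 receptor genes, Bmpr1a, Bmpr1b, Bmpr2, Acvr1, Acvr2a, Acvr2b, Tgfbr1 and Tgfbr3, 0 passed, and the largest difference among them was 0.45 for Tgfbr1. The count of 10 fell to 5 without array 2 of the bulk culture and to 6 without array 1 of the clone. Of 35 Wnt pathway probe sets 4 were higher and 3 lower, among them the receptor gene Fzd8 (1.06 ± 0.16), of 18 Notch pathway probe sets 0 were higher and 2 lower, and of 24 of the FGF and EGF families 3 were higher, including Fgf13 (1.56 ± 0.23), and 3 lower.

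Of 27 cell cycle probe sets, 17 were higher in the bulk culture, 1 was lower and 9 did not pass, and the median was 0.44 against -0.01 over all probe sets. Ccne2, the cyclin E2 gene, had the largest difference, 0.91 ± 0.18 (8.31 and 8.59 against 7.64 and 7.43). Genes of replication licensing (Cdc6, 0.75; Mcm6, 0.59; Mcm5, 0.58; Mcm7, 0.53) and of mitosis (Plk1, 0.47; Ccnb1, 0.44; Aurka, 0.49) were among the 17. Ccnd1, the cyclin D1 gene, was the one that was lower (-0.27). No member reached 2-fold. The count of 17 was 6 without array 2 of the bulk culture, 8 without array 2 of the clone and 10 when each array was centred on its median. Histones, looked at after their values were seen, gave 11 of 28 probe sets higher and 0 lower, with H1f5 at 11.49 and 11.58 against 10.53 and 10.53 (1.01 ± 0.12) and H2ac4 at 1.10 ± 0.17.

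Of 8 probe sets of thymic regulators, Pax1 was higher in the bulk culture and 0 were lower. Pax1 measured 7.21 and 7.74 in the bulk culture and 5.75 and 5.71 in the clone (1.75 ± 0.25; adjusted p = 6.8e-05), and its mean was 7.25 in PRP1cl11_VII and 5.71 in PRE16cl11_VII. Pax9 was near the threshold, at 9.53 and 9.56 against 9.18 and 9.09 (0.41 ± 0.13; adjusted p = 0.0503). Isl1 had a difference of 0.37 ± 0.14 (adjusted p = 0.118). Foxn1 measured 5.75 and 6.06 against 5.99 and 6.05, and the arrays overlapped. Among 20 genes of thymic epithelial function, Bmp4 and Kitlg (the ligand of the receptor Kit; 0.52) were higher and the tight junction gene Cldn3 was lower; Aire, Psmb11, Prss16 and Ccl25 did not pass. Cldn3 measured 7.88 and 8.12 against 9.45 and 9.36 (-1.40 ± 0.13). Cd74, the invariant chain of MHC class II, had a difference of -0.45 ± 0.15 at an adjusted p of 0.0801. Of 10 MHC class II probe sets 1 was higher and 1 lower, and of 13 of MHC class I and the immunoproteasome 1 was higher and 0 lower.

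Both cultures carried Krt14 and Krt8 at high signal. Krt14 measured 13.36 and 13.35 in the bulk culture and 13.33 and 13.30 in the clone. The Krt8 probe sets lay between 11.31 and 11.65 on the 4 arrays, with differences of 0.19 and 0.12 that did not pass. The 3 Krt18 probe sets disagreed in level and in difference, and 2 of them lay between 5.24 and 6.45 on the 4 arrays. The third was higher in the bulk culture by 0.85 ± 0.17 (adjusted p = 0.00194, lost without array 2 of the clone at 0.0718), and those 2 differed by 0.33 and -0.00 without passing. Tp63, the transcription factor of stratified epithelia, had a difference of -0.16 ± 0.09 and Cdh1, the E-cadherin gene, of -0.17 ± 0.10; neither passed. Epcam was 0.28 higher at an adjusted p of 0.0299, a call that leaving out any 1 of the 4 arrays removed (adjusted p from 0.0647 to 0.257). Krt5 and Mki67 had no probe set with 1 symbol and were not analysed here.

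Markers of other cell types gave few calls. Of 15 haematopoietic probe sets 0 passed in either direction and 9 were under 4 on all 4 arrays, Ptprc (CD45) among them at 3.07 to 3.40. Their summed linear signal was 316 and 313 on the bulk arrays and 315 and 318 on the clone arrays. The list does not cover all genes with roles in blood cells. Among genes outside it, Cd48, a leukocyte surface gene (2.13), Pou2af1 (1.13) and Alox5 (1.005) were higher in the bulk culture. Blnk (-1.08) and Cd200r1 (-1.16) were lower. Which cells gave these signals was not tested. None of the 9 parathyroid and thyroid, 11 muscle and 5 melanocyte probe sets passed, and of 11 endothelial probe sets only Tie1 did (lower, -0.60), with Pecam1 at 3.61 to 4.44. Of 13 nerve and neuroendocrine probe sets Nefl and Uchl1 were higher (1.43 and 0.76), while Nefm, Scg3 and Snap25 were under 4 on all 4 arrays.

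The largest decreases in the bulk culture were those of the cytokine genes Il33 and Il1a, and the lists of epidermal differentiation and lipid synthesis held more lower than higher members. Il33, a cytokine stored in epithelial nuclei, measured 8.76 and 9.07 in the bulk culture and 11.23 and 11.21 in the clone (-2.30 ± 0.11, 4.92-fold; adjusted p = 1.3e-11). The bulk mean of 8.92 was the lowest of the 16 cultures, and the grafted 4-month bulk cultures Clone_907 (9.45) and Clone_354 (9.55) came next. Il1a, which encodes interleukin 1 alpha, measured 4.25 and 4.24 against 6.38 and 6.59 (-2.24 ± 0.19; adjusted p = 6.16e-08). The receptor antagonist gene Il1rn was lower by 0.91 (bulk minus clone, -0.91) and Nfkbia, an inhibitor of NF-kappa B, by 0.72 (-0.72). Il10, outside the rule for named genes and chosen after its values were seen, measured 3.57 and 3.32 against 5.73 and 5.37, a difference of at least 4.29-fold as the bulk mean was under 4. Of 32 inflammatory and chemokine probe sets 5 were lower and 4 higher, the latter Il18 (at least 2.49-fold, clone mean 3.63), Csf1 (1.22), Ptgs2 (0.89) and Cxcl10 (0.57).

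Of 16 probe sets of epidermal differentiation 5 were lower in the bulk culture and 2 higher, with a median of -0.36. The lower ones were Cnfn (cornifelin, of the cornified envelope; 5.62 and 5.64 against 6.98 and 6.61), Krt16 (10.57 and 10.48 against 11.67 and 11.58; -1.10 ± 0.16), the cross-linking enzyme gene Tgm1 (-0.74), the transcription factor gene Grhl3 (-0.64) and Krt13 (-0.57). Krt17 (0.27) and the desmosomal gene Dsc3 (0.32) were higher. Among 10 basal keratinocyte and hemidesmosome probe sets Krt15 was lower, at 8.25 and 7.95 against 9.73 and 9.61 (-1.57 ± 0.12; adjusted p = 1.04e-08), and Lama3 (0.46) and Itgb1 (0.30) were higher, while Col17a1, Itga6 and Itgb4 did not pass. The bulk mean of Krt15, 8.10, was the lowest of the 16 cultures.

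In lipid synthesis 9 of 21 probe sets were lower in the bulk culture and 0 were higher, with a median of -0.32. They stood for 8 genes: Lpl (lipoprotein lipase; -0.95), Insig1 on 2 probe sets (-0.72 and -0.65), Dgat2 (-0.60), Scd2 (-0.46), Acaca (-0.45), Fasn (fatty acid synthase; -0.40), Srebf2 (-0.36) and Acly (-0.32). None reached 2-fold. The count of 9 became 4 or 5 when any 1 of the 4 arrays was left out, 4 after median centring and 14 after quantile normalization. Further large decreases were in Igf2bp1, an RNA-binding protein gene (7.19 and 7.36 against 9.17 and 9.10; -1.86 ± 0.11), Depp1 (-1.79), Syt8 (-1.77), Unc13d (-1.67), Fam83a (-1.44), the protease inhibitor gene Serpina1 (-1.42), Ckmt1 (mitochondrial creatine kinase; -1.39), Igfbp2 (-1.38), Ggt1 (-1.32) and Cdkn1c, an imprinted cell cycle inhibitor (7.60 and 7.65 against 8.86 and 8.87; -1.24 ± 0.10).

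**Figure D4:**
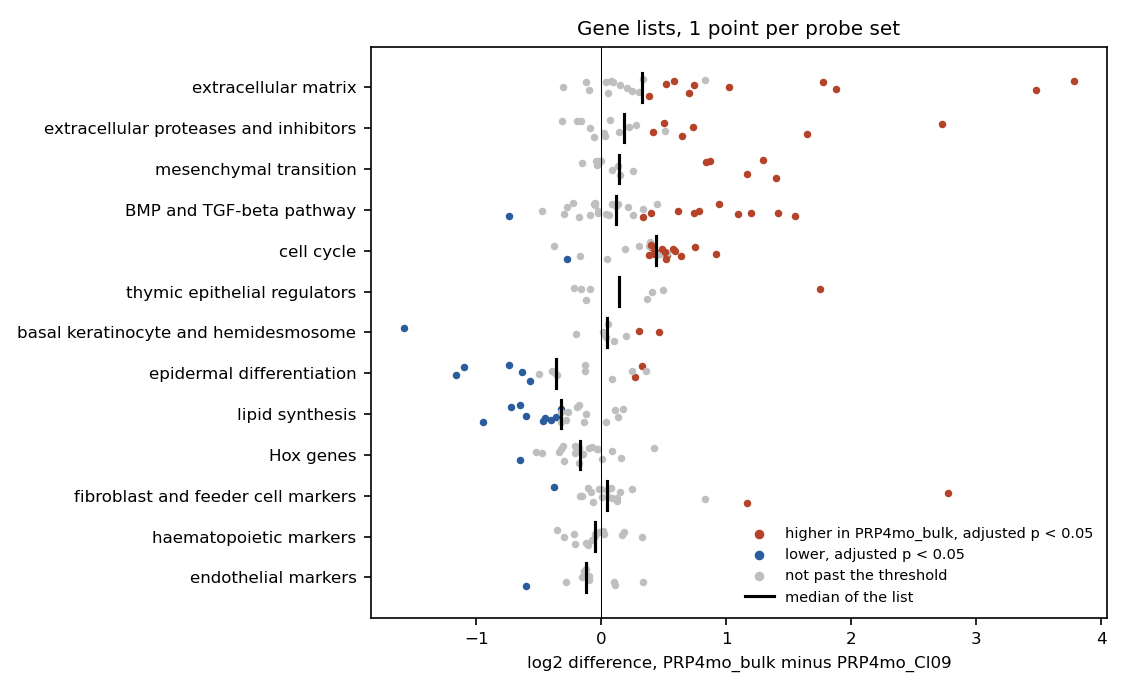
Log2 difference, PRP4mo_bulk minus PRP4mo_Cl09, of the probe sets of 13 gene lists; each point is a probe set, coloured where it passed an adjusted p under 0.05, and the black bar is the median of the list. Extracellular matrix and cell cycle points lie mostly right of 0 (medians 0.33 and 0.44), lipid synthesis and epidermal differentiation mostly left (-0.32 and -0.36), and haematopoietic markers around 0 without a coloured point.

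The 4-month cultures were also set beside the other ungrafted thymic clones. The bulk culture was above both PRE16cl11_VII and PRP1cl11_VII in 101 of the 124 probe sets higher at 2-fold, where 35% of all probe sets tested had this order, and the clone was below both in 60, against 24.5% of all tested. For the 50 lower ones the bulk culture was below both in 40, against 31.5% of all tested, and the clone was above both in 9, against 32% of all tested. Among all 16 cultures the bulk culture was the highest in 68 of the 124 and the lowest in 16 of the 50; over all probe sets tested it was the highest in 7.72% and the lowest in 8.95%. The choice of probe sets by a high or low bulk culture raises these counts by itself, and they are given, with those that follow, as descriptions. In the grafted bulk cultures Clone_907 and Clone_354, both means were more than 1 below the ungrafted bulk culture in 87 of the 124 and more than 1 above it in 26 of the 50; this held for 1.61% and 1.44% of all probe sets tested.

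With the culture as the unit, the spread between the other 14 cultures within tissue and transplantation state stood in for that of the lone 4-month cultures. Then 11 probe sets (0.0718%) differed, all 11 higher in the bulk culture, and 264 had an unadjusted p under 0.05. They were Cyria (a regulator of actin), Cyp1b1 (a cytochrome P450), Crisp3 (a secreted protein), Nefl (neurofilament light chain), Tmem176a, Adamtsl3, Pgr (the progesterone receptor), Bicc1 (an RNA-binding protein), Pde3b (a phosphodiesterase), Rps4y2 and Car3 (a carbonic anhydrase), the last outside the rule for named genes. The bulk culture had the highest mean of the 16 cultures for all 11, by 0.68 to 2.13. The fit favours probe sets that vary little among the other cultures, so the choice itself raises this rank, which is given as a description. Pgr measured 5.54 and 6.15 against 3.84 and 3.80, at least 4.06-fold (adjusted p = 0.0375), and Cyp1b1 5.45 and 5.24 against 3.93 and 3.81, at least 2.79-fold (adjusted p = 0.00737). In 6 of the 11 the clone mean was under 4, and in 9 the clone and both other ungrafted thymic clones were under 4.5, so most rest on a signal close to the low end of the array. Rps4y2 has near-identical copies and is uncertain. Spp1, Lox, Mme and Il33, which vary widely between the other cultures, did not pass (unadjusted p = 0.0186, 0.0038, 0.0907 and 0.0431; adjusted p = 1 for each). The count was 3 without array 2 of the bulk culture and 0 when probe sets with a mean under 5 were left out.

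The hair follicle pair gave the same contrast, bulk minus clone, in another tissue and shares no array with the thymic pair. There 1316 probe sets (8.6%) were higher and 1684 (11%) lower in the bulk culture. Of the 124 thymic increases 59 (47.6%) were also higher in the follicle bulk culture, 8 were lower and 57 did not pass. Of the 50 thymic decreases 36 (72%) were also lower, 3 were higher and 11 did not pass. Tagln (3.62), Rgs4 (6.70), Vcan (1.70), Col12a1 (2.69) and the imprinted gene Ndn (at least 3.92, as its clone mean was under 4) were higher in both pairs, and Cldn3 (-3.17), Igf2bp1 (-2.70), Cnfn (-2.62) and Il33 (-0.63) were lower in both, as was Il1a, whose follicle bulk mean of 3.97 was under 4; the values are the follicle differences. Lox and Serpine2 did not pass in the follicle pair (-0.06 and -0.20). Their means in the follicle bulk culture and clone were 5.06 and 5.12 for Lox and 4.84 and 5.04 for Serpine2. Lox was thus near its lowest mean in the series, 4.72 in Clone_217. Khdrbs3 and Mme were under 4 in both follicle cultures and Tmem176a was at 4.06 and 3.81, so a difference could not be seen there. The test of the difference between the contrasts called 2008 probe sets (13.1%), among them 83 of the 124 and 27 of the 50. The 124 and the 50 were chosen by a large thymic difference, which is part of this test, so their shares are raised by the choice itself. Khdrbs3, Mme and Tmem176a were among the 83.

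Called in opposite directions were 11 probe sets. Higher in the thymic and lower in the follicle bulk culture were Spp1 (3.78 and -0.52), Spr (1.96 and -1.02), Cdh2 (1.30 and -0.83), Bmp4 (1.20 and -0.82), Plscr2, H2ac4, Mybl1 and H1f5. Krt15 was the reverse, at -1.57 in the thymic and 3.23 in the follicle pair, as were Antxr1 and Cd200r1. Cell cycle genes also went the other way: 2 of 27 probe sets were higher in the follicle bulk culture and 19 lower, with a median of -0.55. The difference between the contrasts was positive and past the threshold for 23 and negative for 2. Of all 15310 probe sets tested, 1297 passed with a positive and 711 with a negative difference. Histones gave 0 higher and 12 lower of 28 in the follicle pair. In lipid synthesis 10 of 21 probe sets were lower and 1 was higher in the follicle bulk culture, and the difference between the contrasts passed for 2, with 1 positive and 1 negative. In the extracellular matrix list 10 of 23 were higher and 1, Spp1, was lower in the follicle bulk culture, and the difference between the contrasts passed for 11, of which 3 were positive and 8 negative. Epcam and Cdh1 were lower in the follicle bulk culture (-2.09 and -1.52), beside 0.28 and -0.17 in the thymic pair.

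**Figure D5:**
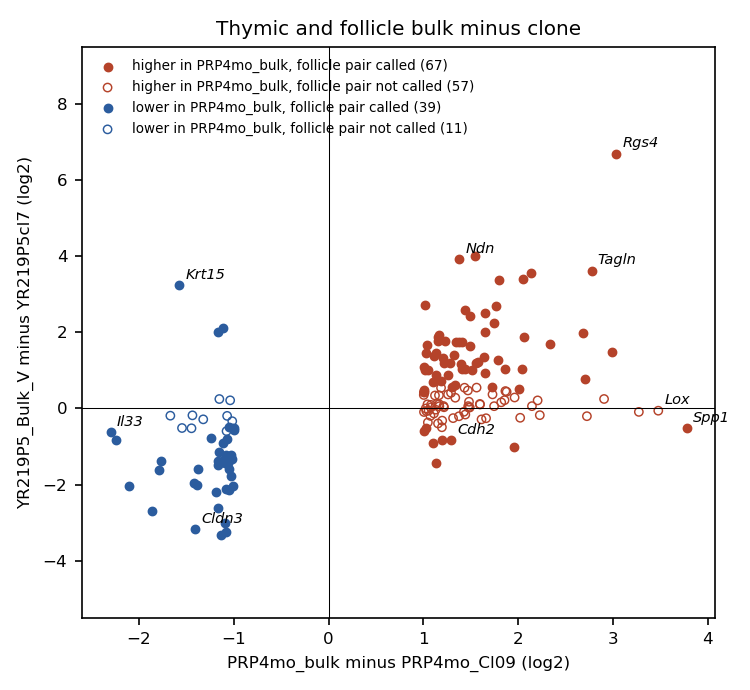
Bulk minus clone log2 difference in the hair follicle pair (vertical axis) against that in the thymic pair (horizontal axis), for the 174 probe sets at least 2-fold different in the thymic pair; filled points passed in the follicle pair, open points did not. Rgs4 and Tagln are high in both, and Krt15 lies in the upper left at -1.57 and 3.23. Lox and Spp1 are high on the horizontal axis. On the vertical axis Spp1 is at -0.52, while Lox is at -0.06 and did not pass.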

How the data were processed

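RNA was hybridised to Affymetrix rat gene arrays after whole transcript sense target labelling of 100 ng total RNA, per the labels' protocols. The values are log2 probe set signals, deposited by the authors after RMA. The submitters' processing notes name Affymetrix Expression Console as the software. That the base is 2 follows from the range of the values; software versions and a genome build are not given in the sources used here. RMA shrinks large fold changes. Gene names came from the platform annotation: of 29215 probe sets, 15310 had 1 symbol (14506 genes; 527 with more than 1 probe set), 323 several and 13582 no listed gene. The Entrez gene of 15279 was found in the RefSeq table of GRCr8, which also gave neighbours and promoter windows.

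Tests used lmFit and eBayes of limma 3.58.1 (R 4.3.3). The array fit had 1 coefficient per culture over all 32 arrays. The culture fit used 16 culture means, with a coefficient each for the 4-month cultures, which were assumed to vary like the other groups. Probe sets passed at a Benjamini-Hochberg adjusted p under 0.05 over 15310. Errors are limma SEs. The number of arrays limits the precision. No background level was measured; 4, a limit chosen after values were seen, was taken as the low end. Named genes were the 15 largest increases and 15 largest decreases whose higher mean was at least 6, up to 4 members per list past 2-fold, up to 10 from the culture fit, Mme, Hoxa7 and a panel. The pair, the 30 gene lists and the rules were chosen with earlier results of these data known. The fits were run on simulated data as a check of the code. The simulation gave the 4-month cultures the same spread as the others, so it does not test that assumption of the culture fit. Array medians ran from 5.287 to 5.782 and those of the 4 arrays from 5.313 to 5.421.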

Additional observations from a re-analysis of the deposited data

Results flagged for a closer look

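The bulk minus clone difference was tested between tissues, thymic minus hair follicle, and 2008 probe sets passed an adjusted p under 0.05 in limma. Among named genes called with opposite signs in the 2 pairs, this difference was 4.29 ± 0.12 (log2, limma SE) for Spp1, 2.12 ± 0.24 for Cdh2, 2.02 ± 0.28 for Bmp4 and -4.81 ± 0.17 for Krt15. Choosing genes by opposite calls makes this difference large by itself, so the values are descriptions. In the cell cycle list 23 of 27 probe sets passed with a larger thymic difference and 2 with a larger follicle difference. Of all 15310 probe sets tested, 1297 passed with a larger thymic and 711 with a larger follicle difference. With 1 culture of each kind, tissue cannot be told apart from the particular cultures. The thymic pair is labelled 4 months and the follicle pair P5, a label the sources do not explain, so whatever it stands for cannot be told apart from tissue either.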

How the results depend on the processing

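The 1323 calls of the array fit became 817 with each array centred on its median (542 higher, 275 lower), 486 with only the 4 arrays compared, and 97 when tested against 1.5-fold, an alternative added after seeing the data; that test also took the 2-fold count from 174 to 94. Leaving out 1 array gave 655 to 1018 calls, 155 to 210 at 2-fold, 3 to 13 with the culture as the unit and 1487 to 1748 for the difference between tissues. The 11 calls of the culture fit became 0 without probe sets of a mean under 5 (86 at an unadjusted p under 0.05). That filter takes probe sets out by their mean over all 32 arrays. In 9 of the 11 the clone and both other ungrafted thymic clones were under 4.5, so most were likely left out and not tested again. The 11 became 7 with only the 12 thymic cultures, and the cause of this change was not tested. Of the 174 probe sets, 164 to 174 stayed called in the other settings, except the test against 1.5-fold (94) and the filter on a mean under 5, where 127 were tested and all 127 stayed called. With a replicate block the counts were 1269 and 174, and 1960 between tissues; the labels give no pairing, the numbers share 2 pairs only, and their deviations correlated at -0.31, so a crossed block, added after seeing the data, was run and gave 1248 and 174. Of 64 named probe sets past the threshold, 48 kept the call in all of the 14 settings that tested them, 16 lost it in at least 1 and 0 changed sign; Pax9 and Cd74 passed in some settings. Arrays have no count depth: signals near 4 or lower limit what can be seen, which holds for the clone in 21 of the 124 increases.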

Other observations

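Imprinted genes, which are expressed from 1 parental copy, gave 3 of 21 probe sets higher in the 4-month bulk culture and 2 lower, with a median of -0.06. Ndn measured 4.67 and 5.03 against 3.48 and 3.47, at least 2.59-fold, Grb10 5.67 and 6.59 against 5.10 and 4.85 and Mest 6.52 and 6.49 against 5.89 and 5.70. Cdkn1c and Kcnq1 were lower (-1.24 and -0.66), while Igf2 and Dlk1 did not pass. Grb10 lost the call without array 2 of the bulk culture (adjusted p = 0.181, limma) and without array 2 of the clone (0.0718). In the hair follicle pair 4 of 21 were higher and 3 lower. Of 19 probe sets of the p53 response and senescence, 2 were higher and 2 lower in the 4-month bulk culture; Gadd45b measured 8.04 and 7.98 against 9.26 and 8.99.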
